A study of Mus musculus with 6 samples.

Results

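Small thymic epithelial cells (TEC) with a bright Meis1 reporter were compared with large TEC of intermediate reporter signal, gene by gene. The comparison used the 2 arrays of the gate labelled high in Meis1 and the 2 arrays of the gate labelled low in Meis1, 4 of the 6 arrays of the study, and 17598 genes could be tested. All cells came from C57BL/6 mice aged 4 weeks that carry the BAC transgene Tg(Meis1-EGFP)FO156Gsat/Mmcd, in which Meis1 regulatory sequence drives the fluorescent protein EGFP. Sorted cells lacked the leukocyte antigen CD45 and carried the epithelial adhesion molecule EpCAM. The Meis1-high gate took cells of high EGFP and low forward scatter (small cells), and the Meis1-low gate took cells of intermediate EGFP and high forward scatter (large cells). Reporter level and cell size therefore cannot be told apart. Each array held RNA of 1 pool of 6 mice from 1 of 2 independent experiments, amplified from 10 ng with WT-Ovation Pico. A transgene reports the activity of the sequence it carries, which need not match the endogenous gene in every cell, and pooling hides the spread between mice. The remaining gate, small cells without EGFP, was not used here.

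TEC build the niche in which thymocytes become T cells. Cortical TEC support positive selection, while medullary TEC display proteins of other organs, many under the control of the regulator Aire, so that self-reactive thymocytes are removed or diverted. Mature medullary cells that express Aire and costimulatory molecules arise from immature medullary cells, and some pass on to states that resemble skin, gut, secretory or tuft cells of other organs. Meis1 encodes a TALE-class homeodomain protein that binds DNA with Pbx and Hox partners and is known for its part in stem and progenitor cells of several tissues.

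Levels below are log2 signals relative to the 75th percentile of their own array, and every difference is Meis1-high minus Meis1-low with its standard error (SE, n = 2 arrays per gate). Where 4 levels stand together, the pair before "against" is Meis1-high and the pair after it is Meis1-low, with replicate 1 first in each. Per array, the 75th percentile of the raw signal was 73.3 and 137 in Meis1-high against 159 and 164 in Meis1-low, and 53.1% to 68.0% of spots were well above background. Meis1-high replicate 1 was the dimmest. The replicates of a gate correlated at 0.906 for Meis1-high and 0.926 for Meis1-low, and 1511 and 941 genes, respectively, lay over 4-fold apart between them. No gene passed limma's test at an adjusted p of 0.05, neither higher (0%) nor lower (0%) in Meis1-high, and the smallest adjusted p was 0.0680. At an unadjusted p under 0.05 there were 1378 genes higher and 2394 lower in Meis1-high. An adjusted p under 0.10 took in 418 genes higher (2.38%) and 973 lower (5.53%). The number called varied between settings, as did the fit's prior degrees of freedom, a measure of how alike the spread of genes is. The 75th percentile scaling gave 4.62 prior degrees of freedom and 0 calls, whereas scaling to the median gave 18.2 and 1412 calls, of which 450 were higher. Without Meis1-high replicate 2, 1222 genes passed, 311 of them higher. Of the settings that kept all arrays, 5 called genes, and 205 genes (77 higher, 128 lower) passed in all of these. An exact permutation test of 2 arrays against 2 cannot go below a p of 0.33. The words higher and lower are used here for levels, since no single gene passed.

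A gene is called separated here where both arrays of one gate lay above both of the other and the mean log2 difference was at least 1, a description of these arrays and not a test. In that sense 2347 genes (13.3%) were separated and higher in Meis1-high, and 3483 (19.8%) were separated and lower. A gene could be tested through either gate, so one well above background in a single gate had to differ to some extent. The median difference of all genes tested was -0.17, and these values are the background against which each group of genes is read. Genes near the detection limit made up much of the lower side: 49.9% of the separated lower genes and 26.2% of the separated higher genes were not well above background on at least 1 array. Among the 13693 genes well above background on all 4 arrays, the sides were even, with 1731 higher and 1744 lower. A difference could be taken on each slide, because replicate 1 of both gates shared slide 1 and replicate 2 shared slide 2. On both slides 5501 genes were higher and 7337 lower, and the differences of the slides correlated at 0.616 across genes, which are not independent of each other.

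**Figure D1:**
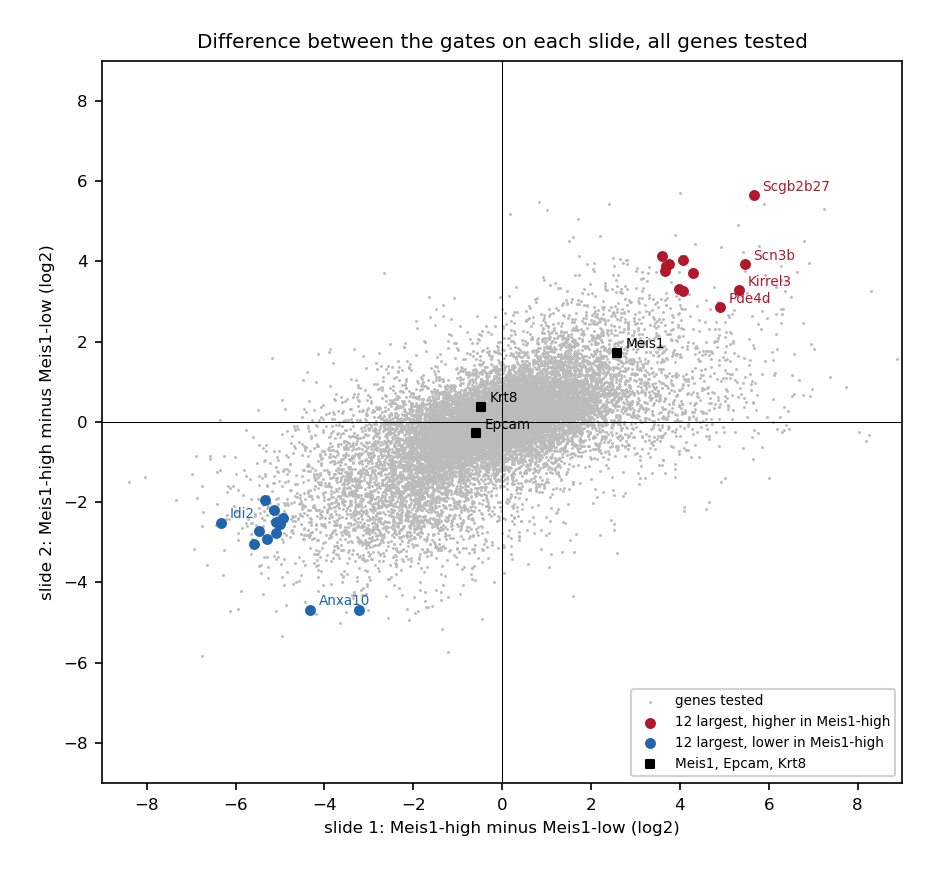
Each point is 1 of the 17598 genes tested, placed by its log2 difference, Meis1-high minus Meis1-low, on slide 1 (x axis) and slide 2 (y axis). The coloured points are the 12 largest differences per direction among separated genes well above background on all 4 arrays, which lie far from 0 on both slides, while Epcam and Krt8 lie near 0.

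The reporter's own gene separated the gates. Meis1 had levels of 0.24 and 0.12 in Meis1-high against -2.35 and -1.61 in Meis1-low, read by a probe at chr11:18911247-18911306 (mm9). Both Meis1-high arrays lay above both Meis1-low arrays, with a difference of 2.16 ± 0.54 (limma adjusted p = 0.0880). Epcam, the gene of the sorted surface protein, had 3.72 and 4.51 against 4.31 and 4.79, and these ranges overlapped. The simple keratin gene Krt8, present in most TEC, had 5.35 and 5.21 against 5.82 and 4.83, again with overlap. Foxn1, the master regulator of TEC identity, had 0.20 and 1.10 against 1.25 and 1.35. Its ranges did not overlap, but its mean difference was below the margin for separation. Ptprc, which encodes CD45, had -0.69 and 0.37 against -1.0 and 0.43, with a wider gap between replicates than between gates.

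The TALE homeobox family, to which Meis1 belongs, had 12 members tested of 15. Separated and higher were 4 of them (33.3%, against 13.3% of all genes). Separated and lower was 1 (8.33%, against 19.8%), and the family's median difference was 0.54. Beside Meis1, the higher ones were Irx2 (2.37 ± 0.77), Pbx4 (1.52 ± 0.77) and Meis3 (1.37 ± 0.72), each not well above background on 1 Meis1-low array. Irx2, Pbx4 and Meis3 were thus tested only through Meis1-high, where they were high, so the count gives no support. Irx1, an Iroquois factor, lay the other way with levels of -2.07 and 0.006 in Meis1-high against 1.35 and 0.95 in Meis1-low. The close relative Meis2 did not separate, with 1.90 and 1.71 against 1.97 and 1.52. Differences were -0.04 ± 0.55 for Pbx2, 0.60 ± 0.64 for Pbx3, 0.89 ± 0.63 for Pknox2, 0.16 ± 0.53 for Tgif1 and -0.68 ± 0.61 for Tgif2, none of them separated.

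Hox genes, whose products can pair with Meis and Pbx proteins, lay on both sides. Of 29 Hox genes, 18 could be tested, 6 were separated and higher, and 4 were separated and lower, with a median of 0.03. Hoxa3, which pharyngeal development and thymus formation need, had levels of 2.87 and 2.09 in Meis1-high against -1.16 and -0.74 in Meis1-low and a difference of 3.43 ± 0.55. Its 4 arrays did not overlap and were all well above background. Hoxa4 was well above background on both Meis1-high arrays and on neither Meis1-low array, which gives a lower bound: its signal was at least 11.3-fold higher in Meis1-high. Hoxa11 and Hoxd1 lay the other way, detected in Meis1-low alone, and were at least 2.92-fold and 1.44-fold lower in Meis1-high. A run of 5 neighbouring array features that were all separated and higher held Hoxa2, Hoxa3 and Hoxa4 (mm9, chr6:51820774-52139855).

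The genes furthest above Meis1-low in the Meis1-high gate were taken as the 12 largest mean differences among separated protein-coding genes that were well above background on all 4 arrays. Scgb2b27, of a secretoglobin family with near-identical copies that its probes cannot separate, had 1.93 and 2.94 in Meis1-high against -3.74 and -2.71 in Meis1-low and a difference of 5.66 ± 0.63. Scn3b, a beta subunit of voltage-gated sodium channels, had 2.72 and 1.87 against -2.74 and -2.06. Kirrel3, an adhesion molecule of the immunoglobulin superfamily known from synapses, had 1.31 and -0.13 against -4.02 and -3.41. In all of these both Meis1-high arrays lay several log2 units above both Meis1-low arrays, with differences of 4.69 ± 0.58 for Scn3b and 4.31 ± 0.65 for Kirrel3.

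Among matrix genes, Col6a2, a chain of collagen VI, had 4.53 and 2.69 in Meis1-high against 0.46 and -1.36 in Meis1-low and a difference of 4.06 ± 0.86. Lox, the enzyme that crosslinks collagen and elastin, had 1.68 and 1.31 against -1.92 and -2.83, a difference of 3.87 ± 0.56. Neither gene overlapped between gates, and the replicates of Lox lay closer together than those of Col6a2. Of the signalling genes, Lifr, the receptor chain for leukaemia inhibitory factor, had 3.61 and 3.26 against -0.06 and -0.50 and a difference of 3.72 ± 0.52. Gas1, a surface protein that binds hedgehog ligands, had 2.27 and 3.31 against -1.48 and -0.63, and Pgf, placental growth factor, had 2.50 and 0.81 against -1.81 and -2.89. Their differences were 3.84 ± 0.62 and 4.00 ± 0.74, and no array of one gate reached into the range of the other. Pde4d, which breaks down cyclic AMP, differed by 3.88 ± 0.68, and Gpx8, a peroxidase of the endoplasmic reticulum, by 3.67 ± 0.56. Sh2d6, a gene with an SH2 domain that tuft cells express, had 1.67 and 1.91 against -2.32 and -1.39, and Tas2r108, a bitter taste receptor, had 1.95 and 1.53 against -1.74 and -2.37. Adjusted p in limma for these 12 genes lay between 0.0680 and 0.0750.

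In 197 genes (1.12%) the probe was well above background on both Meis1-high arrays and on neither Meis1-low array, so only a bound can be given. The bound sets the mean of the brighter gate against the lowest signal well above background on each array of the dimmer gate, or the probe's own signal where that was higher. Tas2r118, another bitter taste receptor, was at least 36.6-fold higher in Meis1-high, Ntrk3, the receptor for neurotrophin 3, at least 17.8-fold and Spaca6, known for its role in sperm and egg fusion, at least 13.8-fold. Adamts18, a secreted protease, followed with at least 11.2-fold, and a transcript named by its accession in the array design (AK081699) with at least 13.5-fold. In Meis1-high, Tas2r118 had levels of 1.97 and -0.07, and Adamts18 0.84 and -2.37, so that the size of these bounds rests in part on 1 array.

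**Figure D2:**
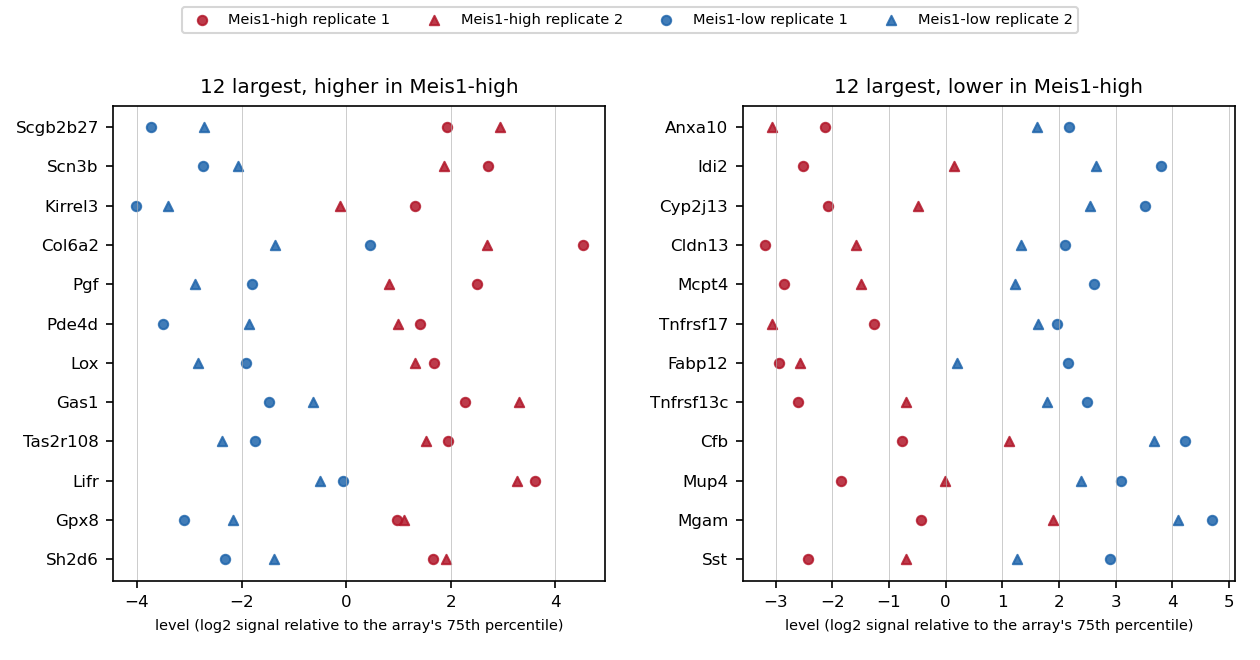
Each row is a gene and each point 1 array, with the level (log2 signal relative to the array's 75th percentile) on the x axis, Meis1-high in red, Meis1-low in blue, replicate 1 as circles and replicate 2 as triangles. The left panel holds the 12 largest differences with higher Meis1-high levels and the right panel the 12 largest with lower ones, and red and blue points do not overlap in any row.

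The 12 genes furthest below were taken by the same rule. Anxa10, an annexin of the stomach lining (mm9, chr8:64536504-64536563), had -2.14 and -3.07 in Meis1-high against 2.18 and 1.61 in Meis1-low and a difference of -4.50 ± 0.58. Idi2, an isomerase of isoprenoid synthesis, had -2.52 and 0.16 against 3.80 and 2.66 and a difference of -4.42 ± 0.94. Mgam, an enzyme of the intestinal brush border that splits starch products, had -0.43 and 1.90 against 4.71 and 4.09. Each had both Meis1-low arrays above both Meis1-high arrays, and Mgam remained well above background in both gates. Sst, the hormone somatostatin, had -2.43 and -0.69 against 2.91 and 1.26, and Cfb, complement factor B, had -0.77 and 1.12 against 4.23 and 3.67. Mup4, of the major urinary proteins secreted by liver and glands, had -1.84 and -0.0039 against 3.1 and 2.39; its probe may read similar copies. For these 3 the differences were -3.65 ± 0.82, -3.78 ± 0.73 and -3.67 ± 0.73.

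Also among the 12, Tnfrsf17, a receptor of plasma cells for the B cell survival factors BAFF and APRIL, had -1.27 and -3.06 in Meis1-high against 1.96 and 1.63 in Meis1-low. Tnfrsf13c, the BAFF receptor of B cells, had -2.60 and -0.71 against 2.50 and 1.79, and Mcpt4, a mast cell protease, had -2.85 and -1.49 against 2.62 and 1.23. Their differences were -3.96 ± 0.70, -3.80 ± 0.74 and -4.09 ± 0.73. Markers of B cells were measured beside them: 5 of 12 tested members were separated and lower in Meis1-high and 0 higher, their summed signal was 18.3 and 8.11 times the 75th percentile in Meis1-high against 30.9 and 16.6 in Meis1-low, and the defining marker Cd79a was well above background on no array. The part of such cells in these values was not tested. Cldn13, a claudin, differed by -4.10 ± 0.69, Fabp12, a fatty acid binding protein, by -3.93 ± 0.74, and Cyp2j13, a cytochrome P450, by -4.32 ± 0.71, although its 3 probes ranged from -4.32 to -0.44. Adjusted p in limma for the 12 lay between 0.0680 and 0.0771.

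Genes well above background on both Meis1-low arrays and neither Meis1-high array numbered 926 (5.26%). By the bound, the Meis1-high signal of Spp2, a secreted phosphoprotein of liver and bone, was lower by at least 18.3-fold, Ctsq, a placental cathepsin, at least 17.5-fold, and Hbb-bh1, an embryonic globin of a family with similar sequences, at least 10.1-fold. The others were Reep1, which shapes the endoplasmic reticulum (at least 10.1-fold), Ptx3, a secreted pentraxin of innate immunity (at least 9.51-fold), and a transcript named ENSMUST00000061823 in the array design (at least 9.63-fold). The Meis1-high levels of these 6 genes, from -6.20 to -3.36, were not well above background.

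Promoter sequence was searched for the core letters bound by Meis proteins, TGACAG, and for the composite letters TGATTGAC described for Pbx with a partner, on both strands; the motifs can overlap by 4 letters. The windows ran from 250 bases before to 50 after the annotated start (RefSeq, GRCm38.p6) and were available for 11576 genes tested. TGACAG stood in at least 1 window of 20.5% of these genes, of 21.5% of the 1294 separated higher genes and of 24.3% of the 2474 separated lower genes. The share was 19.2% of the genes that were neither. TGATTGAC stood in 1.0% of all, 1.08% of the higher and 0.930% of the lower genes. Over all 32851 windows of this length the shares were 19.2% and 0.770%. These last shares count windows and not genes, so they are not directly comparable with the others. The windows below belong to 3 of the genes with the largest differences, 1 higher (Scgb2b27) and 2 lower (Idi2, Tnfrsf13c) in Meis1-high, so that the same 6 letters can be seen on both sides of the comparison. Capitals mark TGACAG, which starts at base -237, -144 and -126 from the start site, respectively.
Scgb2b27 (chr7:34013893-34014192, minus strand): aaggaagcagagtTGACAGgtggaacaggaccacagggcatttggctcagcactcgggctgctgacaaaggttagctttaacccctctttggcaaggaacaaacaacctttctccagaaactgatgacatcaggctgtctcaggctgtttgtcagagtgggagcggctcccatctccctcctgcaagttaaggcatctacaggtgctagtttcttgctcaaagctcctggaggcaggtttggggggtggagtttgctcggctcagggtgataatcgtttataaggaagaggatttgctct
Idi2 (chr13:8952613-8952912, plus strand): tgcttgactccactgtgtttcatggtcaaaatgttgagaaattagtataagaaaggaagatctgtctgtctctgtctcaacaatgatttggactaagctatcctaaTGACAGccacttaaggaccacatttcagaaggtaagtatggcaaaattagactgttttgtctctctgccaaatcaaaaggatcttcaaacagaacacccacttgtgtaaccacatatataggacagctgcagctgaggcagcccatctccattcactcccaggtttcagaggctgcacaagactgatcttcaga
Tnfrsf13c (chr15:82224331-82224630, minus strand): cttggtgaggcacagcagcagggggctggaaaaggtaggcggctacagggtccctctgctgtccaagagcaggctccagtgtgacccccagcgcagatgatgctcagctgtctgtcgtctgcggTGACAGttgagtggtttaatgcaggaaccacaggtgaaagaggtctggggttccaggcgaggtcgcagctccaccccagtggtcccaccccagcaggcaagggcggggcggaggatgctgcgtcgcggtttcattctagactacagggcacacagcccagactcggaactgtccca
The presence of these letters is a description of the sequence and says nothing of binding.

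Groups of genes were then read for cell state, by how many members were separated and by their median difference, against 13.3%, 19.8% and -0.17 for all genes. The plot of all 48 groups orders them by median. Tuft-like genes had the highest median and the antigens induced by Aire the lowest.

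**Figure D3:**
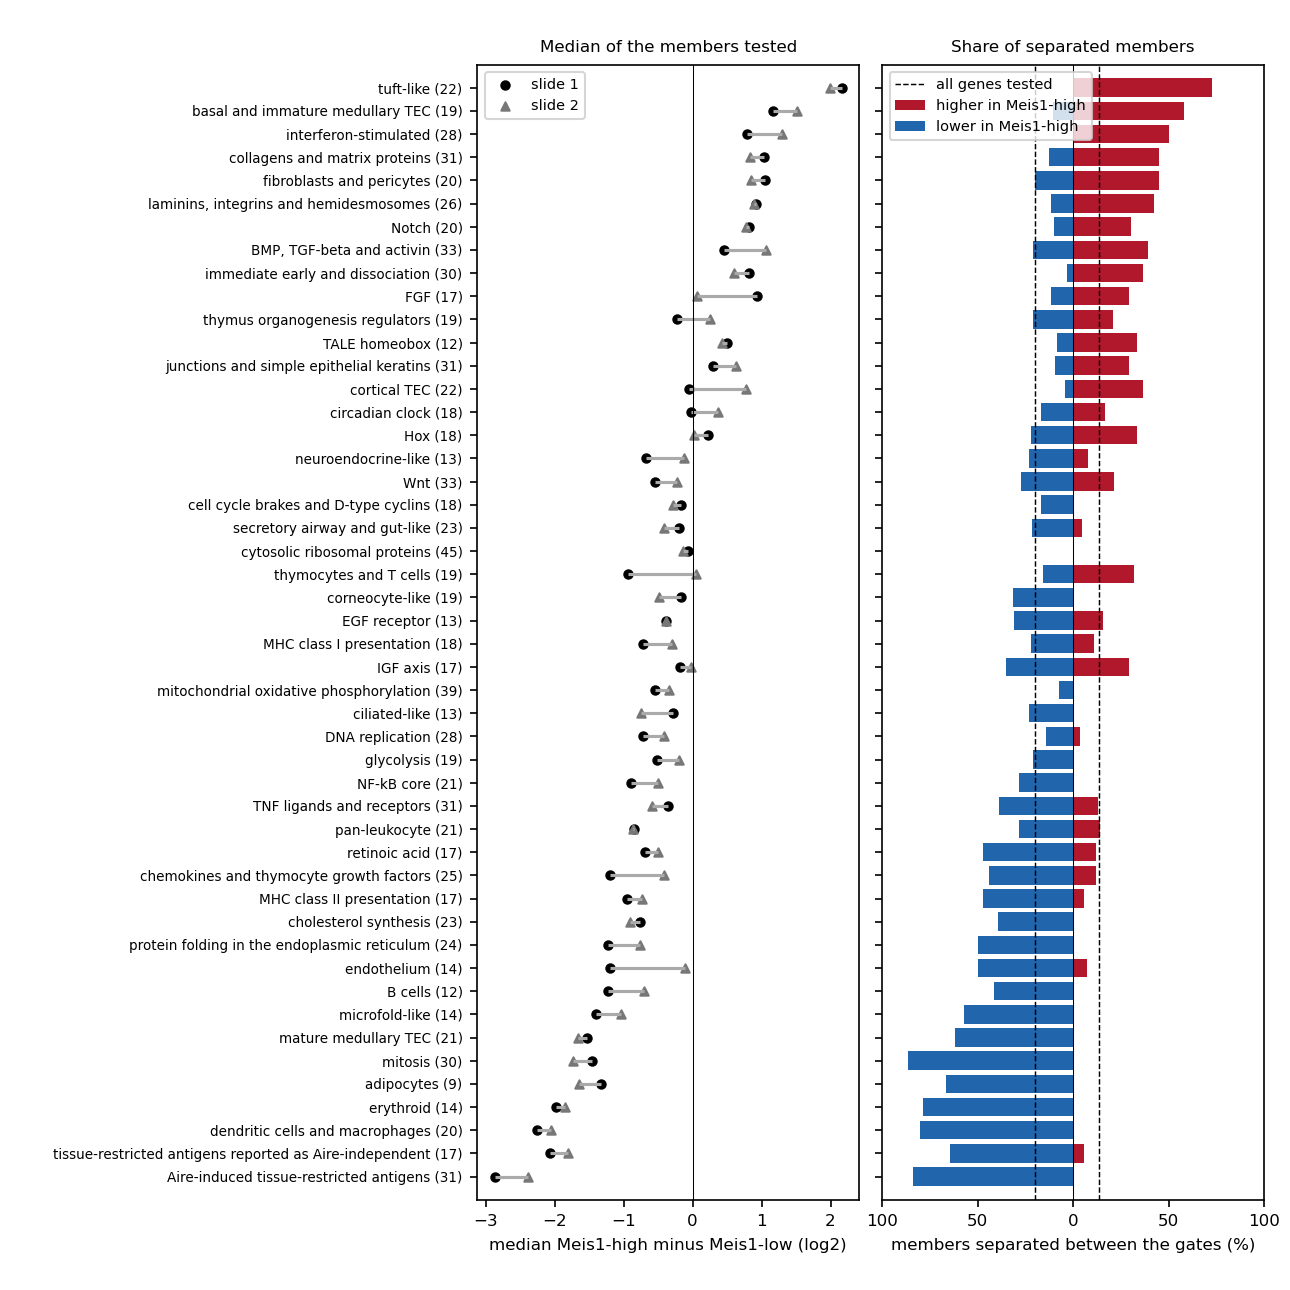
For each group of genes (number of members tested in parentheses), the left panel gives the median log2 difference, Meis1-high minus Meis1-low, on slide 1 (circle) and slide 2 (triangle), and the right panel the percentage of members separated and higher (red) or lower (blue) in Meis1-high. Dashed lines mark the shares over all genes tested, 13.3% and 19.8%; ribosomal protein genes had no separated member, and the tuft-like and antigen groups lie at the 2 ends.

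Chemosensory tuft cells use a taste-like cascade and make eicosanoids and the cytokine IL-25. Of 22 tuft-like genes tested, 16 were separated and higher in Meis1-high (72.7%) and 0 lower, with a median of 2.18 (2.17 on slide 1 and 1.99 on slide 2). Their summed signal was 54.3 and 51.4 in Meis1-high against 15.5 and 14.1 in Meis1-low, in units of the array's 75th percentile. Avil, an actin-binding protein of tuft cells, had 2.21 and 1.88 against -1.24 and -1.87. Trpm5, the cation channel of taste transduction (mm9, chr7:150257715-150257774), had 1.83 and 1.49 against -1.25 and -1.25, and Plcb2, the phospholipase upstream of it, had -0.24 and -0.16 against -3.90 and -3.21. No array of one gate overlapped the other in these genes. Not every tuft-like gene was higher, the lowest difference being -0.35. Normexp background correction, which pulls low signals together, brought the median to 0.60.

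Bitter taste receptors were looked at as a family after their values had been seen, since Tas2r108 and Tas2r118 had been named by size. The 6 that could be tested were separated and higher in Meis1-high, but 4 of them were tested only because they were well above background on both Meis1-high arrays, so the count gives no support. Tas2r105 had 1.41 and 1.98 in Meis1-high against -4.48 and -3.46 in Meis1-low, with Meis1-low replicate 1 not well above background, and Tas2r140 had -1.03 and -1.82 against -3.34 and -2.96, the smallest of the 6 differences at 1.73 ± 0.55. For genes dim on both Meis1-low arrays, bounds were at least 3.33-fold for Tas2r116 and at least 2.11-fold for Tas2r135. Other genes of low signal also leaned this way: olfactory receptor genes had 38 of 103 tested members separated and higher and 8 lower, with medians of 1.14 on slide 1 and 0.43 on slide 2. Genes too dim to be tested (10422) had a median difference of 0.61, with 1.10 on slide 1 and 0.12 on slide 2. The part of dim signal on Meis1-high replicate 1 in low-level genes was not tested.

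Basal and immature medullary TEC genes were largely higher. Of 19 tested, 11 were separated and higher and 2 lower, with a median of 1.36. Ccl21a, a chemokine that draws thymocytes into the medulla, had 7.51 and 7.06 in Meis1-high against 4.38 and 3.50 in Meis1-low, and its probe cannot be told from near-identical copies. Krt5, a keratin of basal epithelia, had 7.40 and 7.38 against 5.23 and 5.29, replicates almost equal, and its partner Krt14 had 6.67 and 6.92 against 5.50 and 4.59. Bcam, a laminin receptor, had 0.14 and -0.76 against -3.02 and -4.09, and Trp63, the regulator of stratified epithelia, had 4.70 and 5.49 against 3.93 and 3.81. None of these genes overlapped between gates, with differences from 1.22 ± 0.54 for Trp63 to 3.34 ± 0.56 for Ccl21a. Tnfrsf11b, of the same group, was 1 of the 2 that were separated and lower and had its lowest difference, -2.53 ± 0.63.

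Cortical TEC genes were mixed, with 8 of 22 separated and higher, 1 separated and lower and a median of 0.33. Without the margin for separation, 12 had a higher mean level in Meis1-high and 10 a lower one. Foxn1 and Krt8, whose levels are given above, belong to the lower side of this group and were not separated. On slide 1 the median was -0.06 and on slide 2 0.78, and it was 0.03 without Meis1-high replicate 2. Psmb11, the catalytic subunit of the thymoproteasome found in cortical TEC, had 3.65 and 4.37 in Meis1-high against 2.20 and 1.33 in Meis1-low. Cxcl12, a chemokine for early thymocytes, had 2.42 and 3.51 against 0.50 and 0.31, and Scx, a basic helix-loop-helix factor, had 2.49 and 2.90 against -0.82 and -0.28. These 3 did not overlap between gates and differed by 2.24 ± 0.58, 2.56 ± 0.58 and 3.24 ± 0.53. Igfbp5, an insulin-like growth factor binding protein of the same group, had 6.40 and 5.67 against 3.34 and 2.66.

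Mature medullary genes lay the other way. Of 21 tested, 13 were separated and lower in Meis1-high (61.9%), 0 higher, with a median of -1.51. Aire had 1.19 and 2.69 in Meis1-high against 3.87 and 4.65 in Meis1-low, a difference of -2.32 ± 0.68 (limma adjusted p = 0.118). The costimulatory ligand gene Cd80 had -0.27 and -0.27 against 1.91 and 2.05, and Xcl1, a chemokine for dendritic cells, had -2.52 and -2.83 against 0.53 and 0.16. Tnfrsf9, a costimulatory receptor of the TNF receptor family, had -0.47 and 0.08 against 2.31 and 2.18, while Cd86 and Ccl22 were each not well above background on Meis1-high replicate 1. All 14 microfold-like genes, named for antigen-sampling cells of the gut, were lower, 8 of them separated, with Ccl20 at 3.0 and 1.70 against 5.41 and 4.43 and Ccl6 at -0.03 and -0.46 against 2.72 and 1.81. Corneocyte-like genes of late skin differentiation had 6 of 19 separated and lower, among them Sprr1b (-2.42 ± 0.53) and Klk7 (-1.47 ± 0.52). Neuroendocrine-like, ciliated-like and secretory groups had 3 of 13, 3 of 13 and 5 of 23 separated and lower, near the background of 19.8%. The dynein heavy chain genes (Dnah), only in part in the ciliated-like group, had 6 of 9 separated and lower and 0 higher. Of these, Dnah1, Dnah6 and Dnah7b were tested only through Meis1-low, where they were high.

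Genes of other organs that Aire induces in medullary TEC had the lowest median of all groups, -2.82, with 26 of 31 separated and lower in Meis1-high (83.9%) and 0 higher. On Meis1-high replicate 1, 23 of the 34 such genes on the array were well above background, against 31 on Meis1-low replicate 1. Some were thus tested only through Meis1-low, where they were high, so the count gives no support. Fgg, a fibrinogen chain made in the liver, had -0.69 and -0.28 in Meis1-high against 2.78 and 2.71 in Meis1-low. Fgb, another chain, had -3.60 and -2.55 against 1.83 and 1.01, and Cyp1a2, a liver cytochrome P450, had -5.09 and -3.55 against -0.18 and -0.13; both were not well above background on Meis1-high replicate 1. Antigens reported not to need Aire had 11 of 17 separated and lower, 1 higher and a median of -2.12. Of the 20 on the array, 13 were well above background on Meis1-high replicate 1, against 17 on Meis1-low replicate 1. Here too some, such as Apob, were tested only through Meis1-low, and the count gives no support. Fabp2, a fatty acid binding protein of the gut, had 1.81 and 1.38 against 4.44 and 4.06, Calca, the gene of calcitonin, had 0.80 and 0.96 against 4.24 and 3.06, and Apoc3, a liver apolipoprotein, had -2.58 and -2.75 against 0.23 and -0.08. Meis1-low levels of all of these lay above both Meis1-high levels.

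Many of the lower genes lay side by side in the genome, where tissue-restricted gene clusters are common. Of 3454 separated lower genes with a next gene on the array, 30.8% had a neighbour that was separated and lower too, against 19.8% of all genes, and the share for the 2315 higher genes was 21.2%, against 13.3%. The longest run was 21 neighbouring features of the kallikrein cluster, secreted serine proteases of salivary gland, skin and prostate (mm9, chr7:51057455-51485826). In the family, 18 of 21 tested kallikrein genes were separated and lower. Klk1b9 had -1.16 and -1.74 in Meis1-high against 2.07 and 1.64 in Meis1-low, Klk1 had 0.34 and -0.07 against 1.30 and 1.21, and the 3 that were not separated, Klk9, Klk10 and Klk14, differed by 0.50 ± 0.50, 0.32 ± 0.60 and -0.55 ± 0.56, the last not well above background on Meis1-high replicate 1. A run of 12 genes covered the casein region (chr5:87943946-88807920), with the milk protein gene Csn2 at 2.90 and 2.16 against 5.21 and 5.02. Stefin genes, inhibitors of cathepsins, formed a run of 9 (chr16:36122294-36450752), and immunoglobulin heavy chain variable segments formed runs of 15 and 12 on chromosome 12. Of 7 major urinary protein genes, 6 were separated and lower. These families and runs were chosen after their values were seen, and probes for Klk1b, Mup, stefin and immunoglobulin segments can read near-identical copies.

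**Figure D4:**
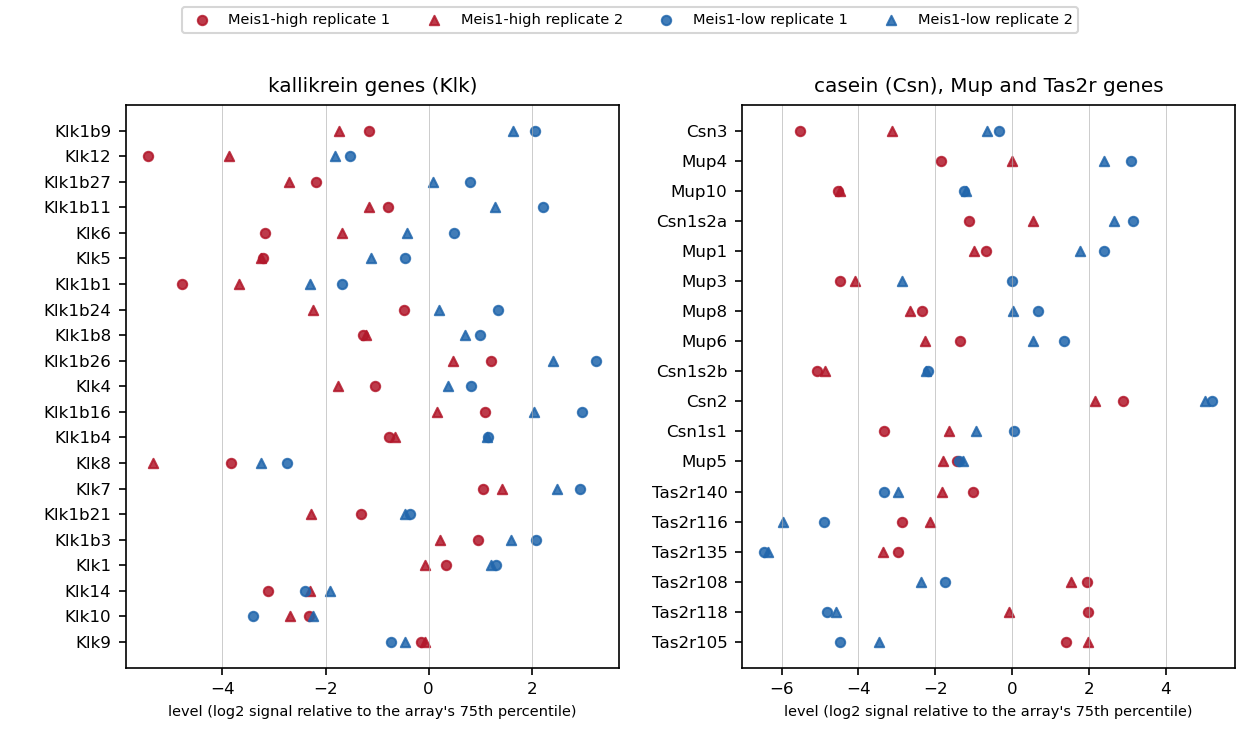
Each row is a gene and each point 1 array, with the level (log2 signal relative to the array's 75th percentile) on the x axis, Meis1-high in red, Meis1-low in blue, replicate 1 as circles and replicate 2 as triangles. In the left panel 18 of 21 kallikrein genes have both blue points above both red points by the set margin, and in the right panel casein genes and 6 of 7 Mup genes do the same while the 6 Tas2r genes tested lie the other way.

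Genes of cell division were lower almost throughout in the small Meis1-high cells. Of 30 mitosis genes, all tested, 26 were separated and lower (86.7%) and on each slide all 30 had a lower level in Meis1-high. Their median was -1.58. Bub1, of the spindle checkpoint, had -1.90 and -2.21 in Meis1-high against 0.12 and -0.03 in Meis1-low, and Spc25, of the kinetochore, had -2.65 and -1.16 against 0.88 and 0.80. Aurkb, a kinase of chromosome segregation, had -2.86 and -3.36 against -0.49 and -0.15, its Meis1-high replicate 1 being not well above background. Mki67, a proliferation marker, had 1.42 and 2.02 against 1.80 and 3.34, and its gates overlapped. DNA replication genes had fewer separated members, with 4 of 28 separated and lower (14.3%, below the 19.8% of all genes), 1 higher and a median of -0.57. Lig1, DNA ligase, had 1.58 and 2.44 against 3.76 and 3.24, and the ribonucleotide reductase gene Rrm2 had -0.76 and -0.87 against 0.51 and 0.55. Among cell cycle brakes 3 of 18 were separated and lower, Cdkn2b (-2.07 ± 0.52), Gadd45a (-1.37 ± 0.52) and Cdkn1a (-1.13 ± 0.50). This share lay below that of all genes (19.8%), and the median of the group was -0.12.

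Biosynthetic groups differed in size of shift. Cytosolic ribosomal protein genes, 45 tested, had no separated member and a median of -0.15, close to all genes, with differences from -0.65 for Rpl32 to 0.50 for Rps4x. Oxidative phosphorylation genes had 3 of 39 separated and lower (7.69%, below the share of all genes) and a median of -0.51. On both slides 33 of the 39 were lower, against 7337 of the 17598 genes tested. Cholesterol synthesis genes had 9 of 23 separated and lower, 0 higher and a median of -0.94. Idi1, the isomerase at its branch point, had 4.94 and 5.14 in Meis1-high against 7.22 and 7.02 in Meis1-low, Sqle, squalene epoxidase, had 1.66 and 2.18 against 3.30 and 3.23, and Msmo1, a methylsterol oxidase, had 2.89 and 3.12 against 4.37 and 4.43. The gates did not overlap in any of these enzymes. Genes of protein folding in the endoplasmic reticulum had 12 of 24 separated and lower and a median of -0.95, with the chaperone gene Hspa5 at 5.49 and 6.12 against 7.19 and 7.0 and Creld2, which the unfolded protein response induces, at 3.37 and 4.01 against 5.99 and 5.37. Of 19 glycolysis genes 4 were separated and lower (21.1%), near the background of 19.8%, among them Hk2, a hexokinase (-2.03 ± 0.59), and Pgk1 (-1.43 ± 0.54). Among the 3520 brightest genes, with mean levels from 1.82 up, the share was smaller, 11.8%. The median levels of the glycolysis genes, 1.95 in Meis1-high and 2.46 in Meis1-low, lay in that range.

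Notch signalling couples neighbouring cells through Delta and Jagged ligands, Notch receptors and Hes and Hey target genes. Of 20 genes tested, 6 were separated and higher and 2 lower, with a median of 0.88 (0.53 without Meis1-high replicate 2). The ligand gene Jag2 had 0.08 and 0.29 in Meis1-high against -2.76 and -2.01 in Meis1-low, and the receptor gene Notch3 had -1.14 and -0.52 against -3.18 and -2.65. The target Hes1 had 1.28 and -0.55 against -2.23 and -3.41, and Hey1 had 4.14 and 4.93 against 2.57 and 2.45. Ligand, receptor and both targets thus lay higher on each Meis1-high array, by 2.57 ± 0.54, 2.09 ± 0.54, 3.19 ± 0.77 and 2.03 ± 0.54.

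BMPs, TGF-beta and activins are secreted ligands that signal through paired kinase receptors, Smad proteins and Id target genes. Of 33 genes tested, 13 were separated and higher and 7 lower, with a median of 0.77. The 7 lower ones were looked up after their values were seen: 6 encode ligands (Bmp2, Bmp3, Bmp5, Inhba, Inhbb and Tgfb2), and the seventh is the antagonist gene Grem1. The target Id1, an inhibitor of basic helix-loop-helix factors, had 1.79 and 2.43 in Meis1-high against -2.01 and -1.06 in Meis1-low and a difference of 3.64 ± 0.59. The receptor gene Tgfbr2 had 0.24 and -0.10 against -4.18 and -2.64, with Meis1-low replicate 1 not well above background, and Fst, the activin antagonist follistatin, was at least 10.4-fold higher in Meis1-high. Bmp3, a ligand that counteracts other BMPs, had -1.95 and -1.08 against 1.34 and 0.98, the opposite order.

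FGF signals drive growth of the thymic epithelium. Both main receptor genes were higher: Fgfr2, whose epithelial form binds FGF7 and FGF10, had 3.09 and 3.46 in Meis1-high against 0.02 and 0.38 in Meis1-low, and Fgfr1 had 0.06 and -0.90 against -5.90 and -3.94, its Meis1-low replicate 1 being not well above background. Spry1, a feedback inhibitor induced by FGF, had 0.14 and -0.59 against -1.90 and -2.06. The Fgfr2 probes ranged from 1.70 to 4.23 in their difference. Of 17 FGF genes, 5 were separated and higher and 2 lower, one of these the mesenchymal ligand gene Fgf10, not well above background in Meis1-high. The slide medians were 0.93 and 0.07.

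The insulin-like growth factor axis was divided, 5 of 17 genes separated and higher and 6 lower. Irs1, the receptor substrate, had 1.21 and 1.27 in Meis1-high against -1.47 and -1.96 in Meis1-low, and the binding protein gene Igfbp4 had 0.12 and 0.94 against -1.91 and -2.28. Igfbp6, a binding protein with preference for IGF2, lay the other way at -0.86 and -1.16 against 1.92 and 1.53. The median of this group, -0.45, turned to 0.78 when probes of a gene were averaged. Wnt pathway genes were split as well, 7 of 33 higher and 9 lower, with the ligand genes Wnt4 at -0.44 and -1.08 against -3.05 and -2.72 and Wnt2b at -1.73 and -0.94 against 0.89 and 1.17. EGF receptor genes had 2 of 13 higher and 4 lower, Egfr itself having 0.99 and 1.15 against -1.02 and -0.33 and its family's ligand gene Nrg1 -1.65 and -1.48 against 0.96 and 1.15.

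Most separated retinoic acid genes were lower, 8 of 17 separated and lower and 2 higher, with a median of -0.69. Cyp26a1, which degrades retinoic acid and is itself induced by it, had -0.78 and -0.80 in Meis1-high against 1.67 and 1.76 in Meis1-low. Crabp1, a carrier of retinoic acid, had -2.05 and -0.50 against 1.85 and 1.56, and Rarres1, named for its response to retinoids, had -1.70 and -0.98 against 1.36 and 1.77. Aldh1a2, which makes retinoic acid, differed by -3.63 ± 0.65, with Meis1-high replicate 1 not well above background. Of the NF-kB genes, 6 of 21 were separated and lower and 0 higher, Relb, which medullary TEC development needs, at 2.44 and 1.96 against 3.92 and 2.94 and Traf1, an NF-kB target, at 0.67 and 1.26 against 3.71 and 3.04.

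The list of interferon-stimulated genes had 14 of 28 separated and higher, 0 lower and a median of 1.09. Whole families of such genes, counted by symbol, lay on both sides. Symbols beginning with Ifi had 10 of 27 separated and higher and 6 lower. Those beginning with Oas had 3 of 11 higher and 4 lower, and those beginning with Gbp 1 of 9 higher and 2 lower. Ddx58, the sensor of viral RNA also known as RIG-I, had 1.54 and 1.95 in Meis1-high against -0.77 and -1.37 in Meis1-low. Xaf1 had 2.83 and 2.65 against 0.46 and 0.43, Isg15, a ubiquitin-like modifier, had 2.43 and 2.63 against 0.30 and 0.67, and Ifit3 had 4.10 and 4.64 against 2.55 and 1.64. The gates did not overlap in any of these. Immediate early and dissociation genes, which respond to tissue handling, were higher too, 11 of 30 separated and 1 lower, with a median of 0.72 and Atf3 at 3.32 and 3.28 against 1.16 and 1.69. The part of handling in the other differences was not tested. Circadian clock genes had 3 of 18 separated on each side.

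Antigen presentation genes were lower in Meis1-high for class II. Of 17 genes, 8 were separated and lower and 1 higher, with a median of -0.89. The class II chain gene H2-Aa had 6.46 and 5.68 in Meis1-high against 6.69 and 6.42 in Meis1-low, and the gates were not separated. Ctss, the protease that trims the invariant chain in dendritic cells and medullary TEC, had 3.72 and 3.54 against 6.00 and 5.01, while Ctsl, the protease of cortical TEC, had 6.46 and 6.63 against 5.21 and 4.16. These 2 proteases lay in opposite order. Class I genes were closer, 4 of 18 lower and 2 higher, with the proteasome activator gene Psme2 at 3.52 and 3.39 against 5.79 and 4.51. Chemokines and thymocyte growth factors had 11 of 25 separated and lower and 3 higher, with a median of -0.81 (-0.45 without Meis1-high replicate 1), Il12a having -2.56 and -1.46 against 1.46 and 1.56. TNF ligands and receptors had 12 of 31 lower and 4 higher. Tnfrsf11b, the decoy receptor for RANKL, had -0.82 and 0.47 against 2.04 and 2.67, and Tnfsf14, a ligand of the lymphotoxin receptor, was lower by at least 6.5-fold.

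Each list of adhesion and matrix genes had more members separated and higher in Meis1-high than lower. Laminins, integrins and hemidesmosome genes had 11 of 26 separated and higher and 3 lower, with a median of 0.90 and near-equal slide medians (0.92 and 0.89). Lamb1 had 2.20 and 1.94 in Meis1-high against -0.21 and -0.86 in Meis1-low, and Lamb3, a chain of the laminin that anchors basal epithelia, had 1.28 and 1.94 against -0.38 and -0.40. Its partner chain Lama3 had 3.06 and 2.61 against 1.24 and 0.0072. The list of collagens and matrix proteins had 14 of 31 higher and 4 lower, with a median of 0.97, Col6a1 having 1.36 and 0.88 against -1.44 and -3.05 and Col14a1 the reverse order, -0.60 and -0.54 against 1.75 and 1.01. The collagen family as a whole was divided. Of 37 tested genes with Col symbols, 12 were separated and higher and 10 lower, with a median of 0.35. Junction genes and a chosen set of keratins had 9 of 31 higher and 3 lower, with the cadherin gene Cdh3 at 1.08 and 0.58 against -1.22 and -1.25. The keratin family as a whole leaned lower. Of 36 tested genes with Krt symbols, 5 were separated and higher and 14 lower, with a median of -0.59. Markers of fibroblasts and pericytes leaned higher, as the matrix list did: 9 of 20 were separated and higher and 4 lower. Their summed signal was 230 and 166 against 119 and 91.2. Tagln, of smooth muscle and pericytes, had 5.15 and 5.33 against 3.25 and 1.40, and Prrx1, of mesenchyme, was at least 6.78-fold higher, while Col1a1, the main fibroblast collagen, had the reverse order, -0.71 and -0.97 against 1.82 and 0.61. Gli1 and Twist1 were well above background on no array. The part of mesenchymal cells in the matrix values was not tested.

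Markers of several blood and vessel cells lay lower in Meis1-high, beside the antigen, chemokine and class II groups. Dendritic cell and macrophage markers had 16 of 20 separated and lower (80.0%), with summed signals of 36.5 and 34.4 in Meis1-high against 89.2 and 80.2 in Meis1-low. Adgre1, the macrophage antigen F4/80, had 0.94 and 0.73 against 3.43 and 3.07, and Mrc1, a mannose receptor, was at least 8.29-fold lower. Cx3cr1, Flt3, Siglech and Mertk were well above background on no array. Erythroid markers had 11 of 14 lower and summed signals of 6.17 and 6.68 against 16.7 and 16.3, with Gata1 well above background on no array. Adipocyte markers had 6 of 9 lower and endothelial markers 7 of 14, with Kdr, Tie1, Eng, Plin1, Lep and Cfd likewise dim on all 4 arrays. Of 27 dendritic cell and macrophage markers on the array, 12 were well above background on Meis1-high replicate 1 and 21 on Meis1-low replicate 1. The same numbers were 6 and 15 of 17 for erythroid and 6 and 14 of 21 for endothelial markers. Many of these markers were thus tested only through Meis1-low, where they were high, so these counts give no support. Pan-leukocyte markers had 6 of 21 lower and 3 higher, and thymocyte markers 3 of 19 lower and 6 higher. The thymocyte markers had a median of -0.27, and their summed signals were 14.1 and 13.2 against 23.2 and 14.7. Tcf7, a T cell transcription factor, had -0.31 and 0.04 against 1.78 and 1.70, and Cd3e, part of the receptor complex of T cells, lay the other way at 0.52 and -0.27 against -1.98 and -1.64. Whether these genes came from other cells in the gates or from TEC was not tested, and in sorted bulk RNA fewer cells of a type cannot be told apart from less RNA per cell. Among the higher genes the longest run was that of 7 neighbouring beta protocadherin genes, Pcdhb16 to Pcdhb22, with differences from 1.18 to 2.44.

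Precision followed the signal. Among the 3520 genes of lowest mean level the median standard deviation (SD, n = 2) between replicates was 0.622 for Meis1-high and 0.543 for Meis1-low, and 18% of genes were separated and higher and 34.7% lower. Among the 3520 brightest genes these values were 0.322, 0.352, 7.47% and 11.8%. Separation was thus more frequent where replicates also lay further apart.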

How the data were processed

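Signals of one-colour whole mouse genome arrays came from the software Agilent Feature Extraction, version 9.5.3.1, and probes are placed on mm9, per the file headers. The deposited values used are the scanner software's processed signals, an intensity after background subtraction and detrending, not scaled between arrays. The authors' deposited value table holds the same arrays on a log2 scale, centred on each probe's median, and was used as an alternative (correlation with the scaled signals at least 0.9999).

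Control spots and outlier marks were left out, spots of a probe were averaged, and each array's 75th percentile was subtracted from the log2 signal. Probes well above background (the scanner's mark) on both arrays of either gate were tested, 25477 of 41174, and the probe with the highest mean stood for a gene. Names came from RefSeq accessions where they matched (26682 probes). The gates were compared with limma 3.58.1 in R 4.3.3 with a mean per gate (2 residual degrees of freedom) and Benjamini-Hochberg adjustment. The 48 lists hold 1159 entries, 1044 of them tested, and 0 passed. Members and lists were chosen with earlier results of these data known.

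Named by rule were the 12 largest differences and 6 largest bounds per direction, up to 4 genes of smallest p per list, the TALE family and a set of fixed genes. Genes named otherwise are said to be. The replicate numbers mark slides, and pools with the same number may share an experiment, but the labels state no pairing. Replicate deviations of the 2 gates correlated at 0.155 across genes, too few pairs to show one. The p-values measure the spread between pools. Normalization, background, filter, floor, probe choice, block and left-out arrays were varied. The number of arrays limits the precision. Figures used Python 3.11.15, pandas 2.3.3 and matplotlib 3.10.9.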

Additional observations from a re-analysis of the deposited data

How the results depend on the processing

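Called genes, 0 in the main setting, numbered 416 with normexp background correction (offset 50; 168 higher, 248 lower), 1412 with median scaling, 532 among genes well above background on all 4 arrays, 858 with a floor under dim signals, 808 with a variance trend and robust fitting, and 1391 at an adjusted p under 0.10. Without 1 array, calls ranged from 0 to 1222, the latter without Meis1-high replicate 2. Calls stayed at 0 with quantile normalization, no filter, the mean of a gene's probes, the authors' values, outliers kept, all 6 arrays, and the replicate block (smallest adjusted p = 0.0921 in limma). Separated genes fell to 696 higher and 1015 lower with normexp, numbered 3923 higher and 3819 lower with no filter, and 1741 higher and 1752 lower among genes well above background on all 4 arrays. The share that was higher was 40.3%, 50.7% and 49.8% in the main setting and the last 2, and the median difference of all genes was -0.17, 0.19 and -0.04. Without 1 array, the higher ones ranged from 2254 to 3411 and the lower ones from 3314 to 4908. The cause of these changes was not tested.

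Of the named genes' values, 3018 kept their direction and side of the threshold, 599 newly passed it and 17 reversed. Dnah5 reversed to 0.66 with averaged probes, Tgfa to 0.29 with the floor, and Selplg to 0.41 with the filter on all 4 arrays. Pbx3 came to -0.0048 and Krt8 to 0.051 with normexp, and Krt8 to 0.23 with quantile normalization. Of genes near 0, some changed sign with an array left out: Meis2 ranged from -0.17 to 0.29, Pbx2 from -0.40 to 0.33, Pbx3 from -0.13 to 1.32, Tgif1 from -0.15 to 0.46, Ptprc from -0.59 to 0.84 and Krt8 from -0.53 to 0.45. Of list medians, 688 stayed within the spread and 80 moved. For 4 named genes (Dnah5, Gadd45b, Dsg3 and Selplg) the probes had opposite signs.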
